A study of Mus musculus with 12 samples.

Results

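Simple repeats with long units are tandem copies of a short word of 6 to 12 bases, and here they were followed in the RNA of mouse 2-cell embryos with and without maternal Kdm4a. Rows of the repeat tables were taken as members where the class was simple repeat and the unit written in the name had 6 or more letters, whatever their counts. This gave 15932 of the 18538 repeat names in the tables, and of 17171 simple repeats in all. Units of 7 bases were the most common with 6432 names, followed by 3326 names with 8 bases, 3075 with 6, 1645 with 10 and 1391 with 9, while units of 11 and 12 bases gave 42 and 21 names. The written unit was a multiple of a shorter word in 249 names, so these are repeats of a shorter unit by sequence. A tandem repeat reads the same whichever base is called its first, and on its opposite strand it reads as the reverse complement. Names that differ only in this way were therefore put in 1 motif group, called by the alphabetically first form of the unit. The members fell into 4448 motif groups, of which 2241 held a single name and the largest held 20.

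The embryos were of the C57BL/6 strain, sampled 1.5 days after fertilization. Oocytes of both groups were fertilized by sperm of Kdm4a knockout males. The group called WT (m+/p-) came from wild-type oocytes and the group called KO (m-/p-) from Kdm4a knockout oocytes, so all embryos lacked a working paternal allele and only the maternal allele and the product stored in the oocyte differed. The KDM4A protein is an enzyme that takes methyl marks off lysine residues of histone H3. Each group had 6 libraries, made by a stranded kit for very small amounts of RNA with depletion of ribosomal RNA. The labels mention individual tubes but not how many embryos or females stand behind each library, so p-values here measure only the spread between these libraries. Further differences between the mothers, or between their oocytes, cannot be told apart from the maternal genotype, and in such bulk samples fewer cells and less RNA per cell cannot be told apart either. The level of Kdm4a itself was not analysed here, since the tables hold repeats only.

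As background, simple repeats arise and change length mainly by slippage of the polymerase during DNA replication, and longer units are found scattered between genes, in introns and inside other repeats. Most have no promoter of their own, and RNA that carries them is as a rule part of a longer transcript, such as an intron, an untranslated region or a transposon that has taken up the repeat. The best known motif of this length is TTAGGG, the unit of telomeres, which is transcribed into the long noncoding RNA called TERRA. The 2-cell mouse embryo is known for the transcription of MERVL, an endogenous retrovirus that is switched on at this stage.

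The members whose RNA level differed between the groups are shown first, because several of them share a sequence. Each line gives 2 copies of the unit, 5′ to 3′. So that the lines can be compared, _CTCTTAT_n is shown as the reverse complement of its name, and this holds too for _TCTTGC_n as well as for _CTTGTC_n. Capitals mark 1 copy of the group form.
Repeat _GAGATAA_n: gagatAAGAGATaa
Repeat _CTCTTAT_n: atAAGAGATaagag
Repeat _AGAGCGCA_n: agagcgcAAGAGCGCa
Repeat _GAGCAA_n: gagcAAGAGCaa
Repeat _TCTTGC_n: gcAAGAGCaaga
Repeat _CTTGTC_n: gacAAGGACaag
Repeat _AATTAAT_n: aattAATAATTaat
Repeat _GACAGA_n: gACAGAGacaga
The first 5 of these 8 repeats hold the word AAGAG on 1 strand. The pair _GAGATAA_n and _CTCTTAT_n is 1 motif written from opposite strands, and so is the pair _GAGCAA_n and _TCTTGC_n. How many places in the genome carry each name, and where they lie, was not analysed here. The sources used here do not say whether reads that match several places were divided among names, and the separate levels of names in a motif group are therefore uncertain.

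Over all repeat names, KO replicate 5 had the fewest counts with 7952526 and WT replicate 4 the most with 18902360. As a check of the stage, MERVL-int, the internal part of the MERVL retrovirus, took 5.86% ± 0.835 (SD, n = 6) of all counts in WT and 3.52% ± 0.703 in KO. MT2_Mm, the terminal repeat of MERVL, took 1.19% ± 0.185 and 0.782% ± 0.135, while MTA_Mm-int, a transposon whose RNA is stored in the oocyte, took 5.43% ± 0.384 and 4.97% ± 0.607. MERVL-int therefore differed between the groups, and its values are set beside the members it moved with further on. In an earlier look at these data WT replicate 2 and KO replicate 5, which is the shallowest library, stood apart from the rest, and calls of members and motif groups that were lost without both are named.

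Long-unit repeats were a small and thinly spread fraction of the repeat RNA. They took 1.20% ± 0.0968 (SD, n = 6) of all counts in WT, from 1.05% to 1.30%, and 1.44% ± 0.136 in KO, from 1.20% to 1.60%. Of the KO libraries, 5 lay above the WT range and KO replicate 2 lay inside it. Of the counts outside the LTR class, which holds MERVL, the members took 2.71% ± 0.158 in WT and 2.75% ± 0.212 in KO, and of simple repeat counts alone 19.1% ± 0.516 and 18.5% ± 0.968. With those denominators the libraries of both groups overlapped. Units of 6 bases, the shortest that count as members, took 0.876% ± 0.0866 of all counts in WT and 1.05% ± 0.112 in KO, and units of 5 bases, just below, took 0.560% ± 0.0282 and 0.701% ± 0.0588. No test was made on these sums.

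**Figure D1:**
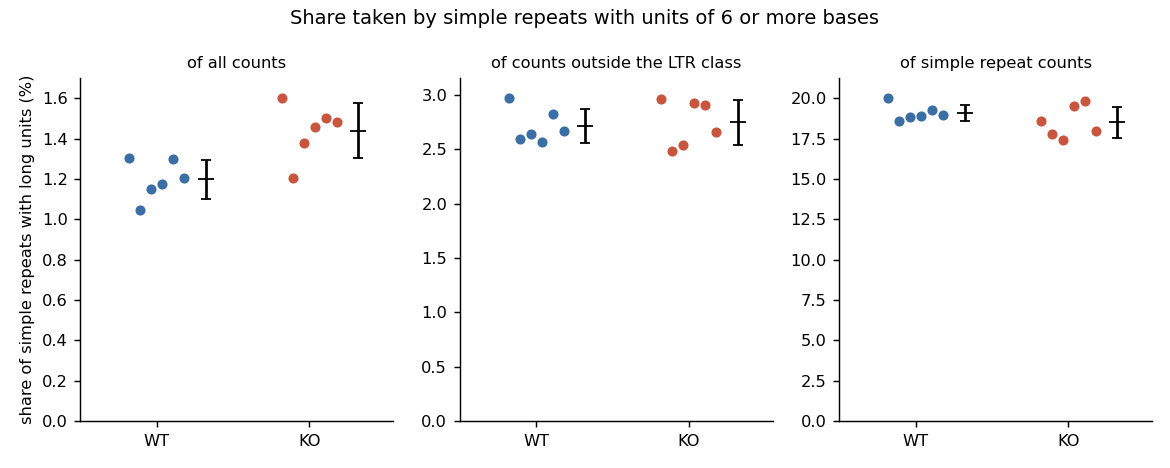
Share of counts (%) taken by simple repeats with units of 6 or more bases in each library, as a share of all counts, of counts outside the LTR class and of simple repeat counts. Points are libraries (6 WT, 6 KO), bars are mean ± SD: the mean is 1.20% in WT and 1.44% in KO of all counts, and the groups overlap in the other panels.

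Most of the names were not seen or were seen rarely. Of the 15932 members, 7887 had a count in at least 1 library and 8045 had 0 counts in all 12, while 1782 had a count in every library. A single library counted between 2650 names (WT replicate 2) and 4678 names (KO replicate 1). No member was counted in all 6 libraries of a group and in none of the other. The filter on low counts passed 1467 members and left out 14465, of which 6420 had some counts, and the tested names held 93.0% of the members' counts. The counts were nevertheless divided among many names, with 12.3% in the 10 most counted and 48.2% in the 100 most counted, and 110 names held 50% of them. The median level of a tested member was 2.19 CPM (counts scaled to a common library size by TMM), 274 members reached a mean of 10 CPM, and the highest mean was 297.5 CPM.

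The most abundant member was _GATGAT_n, by sequence a repeat of GAT. Its level in WT ran from 230.9 to 467.9 CPM with a median of 322.9, and in KO from 215.9 to 314.3 with a median of 257.4. The groups overlapped, and the log2 fold change of -0.37 (SE 0.15) did not pass (adjusted p = 0.259, edgeR). Next came _TCATCT_n at 223.1 ± 43.2 CPM in WT and 244.4 ± 99.6 in KO, where KO replicate 5 alone stood at 439.6. By log2 fold change the next were _TTGTGG_n at -0.26, _TTTGTT_n at 0.065, _CTTCTC_n at 0.027, _TTTTTG_n at -0.018, _TTCTCC_n at 0.16, _ACACAC_n at 0.10, _TTTTGG_n at -0.012 and _AGAAAAG_n at 0.22. Of these, _ACACAC_n is again a multiple of a shorter unit, AC. None of the 10 most abundant names passed the test, and 6 of them, those other than _GATGAT_n, then _TTTGTT_n, then _ACACAC_n, then _AGAAAAG_n, changed sign under at least 1 other setting.

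Summed by motif, the group AAAAAC, to which _TTTTTG_n belongs on the other strand, held the most counts, 137371 over the 12 libraries. Its level was 791.1 ± 84.7 CPM in WT and 809.9 ± 46.3 in KO, a log2 difference of 0.034 (SE 0.078, adjusted p = 0.898). In this group 74.3% of counts came from names written on the T-rich strand. The same lean to the strand opposite the group form was seen in AAGGAG with 94.0%, AAAGAG with 94.9%, AAGAGG with 82.6%, AAAAAG with 72.2% and AAGATG with 62.1%. In these groups most counts thus fell to names rich in C and T rather than in A and G. AAAAAAC stood at 62.5%, while ACAGAG at 54.9% and AAGAGC at 50.1% were nearly even. The motif ATCATC stood at 96.8%, almost all of it in the name _GATGAT_n, which held 91.5% of that group's counts. Whether the deposited counts used the strand of the read is not stated in the sources, so this is a share of names and not of transcript strands.

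Of the 1467 members tested, 1 rose and 7 fell in KO. A call required an adjusted p below 0.05, from edgeR's quasi-likelihood test with Benjamini-Hochberg adjustment over all 3312 repeats tested. That is 0.545% of the members, where 1.42% of all repeats tested passed, 1.27% lower and 0.151% higher. The log2 fold changes were positive in 701 members and negative in 766, with a median of -0.018 against 0.011 over all repeats tested. At an unadjusted p under 0.05 there were 41 higher and 71 lower members, where 5.5% of all repeats were higher and 7.91% lower. The groups did not overlap, with KO lower, in 14 members, or 0.954%, against 1.39% of all repeats, and with KO higher in 3 members, or 0.204%, against 0.725%. Scaling by total counts in place of TMM moved the median of all repeats from 0.011 to 0.32 on the log2 scale and gave 33 higher and 7 lower members, against 357 higher (10.8%) and 33 lower (0.996%) over all repeats. All of the 8 calls made with TMM were among those 40. DESeq2 gave 5 higher and 27 lower members, against 1.27% and 3.83% of all repeats.

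**Figure D2:**
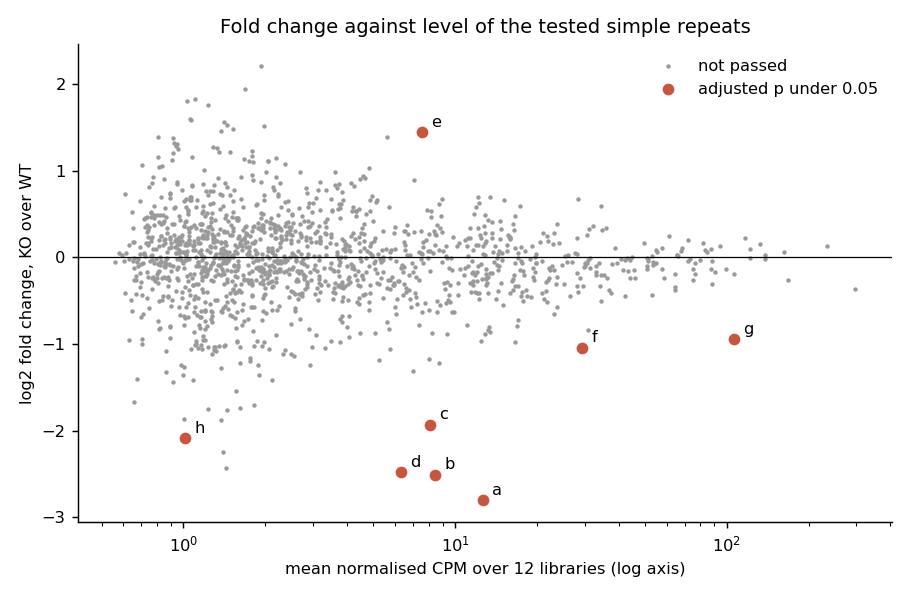
Log2 fold change, KO over WT, against the mean normalised CPM over 12 libraries (log axis) of the 1467 tested members, with the 8 that passed in red. Letter a marks _GAGATAA_n, letter b _CTCTTAT_n, letter c _CTTGTC_n, letter d _AGAGCGCA_n, letter e _GACAGA_n, letter f _GAGCAA_n, letter g _TCTTGC_n and letter h _AATTAAT_n: the largest fall among them is -2.81 (a), and e is the only rise, at 1.45.

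The plot of fold change against level shows that changes of a log2 size of 1 were common among rare names and mostly did not pass there. Among the 8 that passed, 5 had a mean under 10 CPM, as had 1193 of the 1467 tested. By class of unit, the members that passed were 3 lower and 1 higher of 839 with 6 bases, 3 lower of 377 with 7 bases and 1 lower of 187 with 8 or 9 bases, and 0 of 64 with 10 or more. Words that hold GATA or GACA, the type known from the Bkm satellite of snakes, gave 1 higher and 3 lower of 183 tested, with a median log2 fold change of 0.071. Units with purines alone on 1 strand gave 0 of 256, units with AAAA or TTTT 0 of 225 and units with over 2/3 G and C 0 of 175, where the unadjusted counts were 4 higher and 8 lower, 9 and 5, and 0 and 8. Over all repeats tested, 5.5% were higher and 7.91% lower at an unadjusted p under 0.05 (edgeR). Units that hold CG, the site of DNA methylation, gave 1 lower of 159. For comparison, 1 of 321 repeats with units of 5 bases passed and 0 of 217 with units of 4, while 3.10% of 1227 repeats of other kinds passed. The median level of tested names was 2.19 CPM in members, 2.75 with units of 5, 14.6 with units of 4 and 41.0 in the other kinds. Whether level sets these rates was not tested. At an unadjusted p under 0.05 there were 9 higher and 7 lower with units of 5, and 24 higher and 1 lower with units of 4. The median log2 fold changes were 0.032 and 0.13.

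The strongest fall was in the motif AAGAGAT. Its name _GAGATAA_n ran from 12.7 to 27.3 CPM in WT with a median of 23.2, and from 1.05 to 5.07 CPM in KO with a median of 3.63. Its partner on the other strand, _CTCTTAT_n, ran from 7.75 to 19.2 CPM in WT with a median of 15.1, and from 0.940 to 4.34 CPM in KO with a median of 2.41. WT replicate 5 was the lowest WT library in both names and KO replicates 1 and 6 were the lowest KO libraries, and the groups did not overlap. The raw counts behind these values were 192 to 388 per library in WT and 19 to 76 in KO for _GAGATAA_n. The fall was -2.81 on the log2 scale for _GAGATAA_n (SE 0.37, adjusted p = 0.00669) and -2.51 for _CTCTTAT_n (SE 0.38, adjusted p = 0.0149).

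Both names moved together library by library. The count of _GAGATAA_n was 1.56 ± 0.108 times that of _CTCTTAT_n in WT (SD, n = 6) and 1.27 ± 0.247 times in KO. The tables list 13 names for the motif, of which 10 had counts, and the other counted names, such as _AGATAAG_n with 22 counts and _TCTCTTA_n with 20, were too rare to test. Almost the whole motif was thus in a single phase on each strand. Summed over its names, the motif stood at 36.6 ± 9.51 CPM in WT and 6.62 ± 3.72 in KO, a log2 difference of -2.49 (SE 0.35, adjusted p = 0.00552).

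The second motif with AAGAG, AAGAGCGC, was carried by _AGAGCGCA_n. This name ran from 5.24 to 15.8 CPM in WT with a median of 10.3, and from 0.584 to 3.78 CPM in KO with a median of 1.49. WT replicate 2 was the lowest WT library, unlike in the AAGAGAT names, and KO replicate 2 the highest KO library, without overlap. The change was -2.48 (SE 0.42, adjusted p = 0.0149), and raw counts were 44 to 286 in WT and 5 to 50 in KO. A rotation on the other strand, _GCTCTTGC_n, stood at 1.25 ± 0.265 CPM in WT and 1.14 ± 0.424 in KO, a log2 difference of -0.12 (SE 0.34, adjusted p = 0.942). The motif as a whole differed by -1.77 (SE 0.32, adjusted p = 0.00780), with 78.2% of its counts in _AGAGCGCA_n.

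The third such motif, AAGAGC, held 39835 counts. Its leading name _TCTTGC_n ran from 96.1 to 172.8 CPM in WT with a median of 146.8, and from 40.1 to 89.7 CPM in KO with a median of 79.8. The name _GAGCAA_n, on the other strand, ran from 28.8 to 48.3 CPM in WT with a median of 40.1, and from 11.2 to 25.4 CPM in KO with a median of 19.9. In both, WT replicate 2 was highest and WT replicate 5 lowest within WT, KO replicate 1 was lowest of all, and the groups did not overlap. The log2 fold changes were -0.95 (SE 0.19) for _TCTTGC_n and -1.04 (SE 0.20) for _GAGCAA_n, both with an adjusted p of 0.0212. The count of _TCTTGC_n was 3.53 ± 0.203 times that of _GAGCAA_n in WT and 3.80 ± 0.397 times in KO.

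Other rotations of AAGAGC did not pass the test. The name _CAAGAG_n stood at 82.6 ± 11.7 CPM in WT and 86.7 ± 45.3 in KO, a log2 difference of 0.067 (SE 0.26, adjusted p = 0.961). KO replicate 5 stood at 169.0 CPM and the other KO libraries at 41.7 to 105.5, and without KO replicate 5 the difference was -0.23 (adjusted p = 0.682). The names _CTCTTG_n at -0.81 (adjusted p = 0.154) and _AGAGCA_n at -0.74 (adjusted p = 0.248) had no overlap between groups, with KO lower, and did not pass the test, and _GCTCTT_n was at -0.44 (adjusted p = 0.597). Summed, the motif was 288.0 ± 31.8 CPM in WT and 196.5 ± 55.5 in KO, with a log2 difference of -0.55 (SE 0.15) that did not pass (adjusted p = 0.0516). It passed in 11 of the 22 other fits, among them the fit without WT replicate 2 and KO replicate 5, and the adjusted p ran from 0.00817 to 0.164 over these fits. No test of the difference between rotations was made.

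Among the names that lack AAGAG, the name _CTTGTC_n belongs to the motif AAGGAC. It ran from 6.65 to 17.5 CPM in WT with a median of 12.6, and from 1.45 to 4.32 CPM in KO with a median of 3.96. The groups did not overlap, WT replicate 1 being the lowest WT library and KO replicate 1 the lowest of all. The change was -1.93 (SE 0.32, adjusted p = 0.0149). The remaining tested names of this motif, _CAAGGA_n at 0.016 (SE 0.41), _CCTTGT_n at 0.34 (SE 0.57) and _TCCTTG_n at -0.30 (SE 0.45), were rarer in WT at 1.99 to 3.01 CPM and did not pass, with adjusted p of 0.992, 0.881 and 0.863. The motif as a whole was lower by a log2 value of -0.82 (SE 0.21, adjusted p = 0.0364).

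The rarest name that passed was _AATTAAT_n, with 177 counts in all. It ran from 0.938 to 2.49 CPM in WT with a median of 1.50, and from 0.117 to 0.664 CPM in KO with a median of 0.365. The groups did not overlap, though KO libraries held as few as 1 count and at most 12. The change was -2.09 (SE 0.46, adjusted p = 0.0359). Its motif, AATAATT, held 1085 counts in 14 names, of which 1 was tested, and was not among the motif groups that passed. The other names lay on either side. _TTATTAA_n, with 166 counts, stood at 0.558 ± 0.751 CPM in WT and 1.30 ± 1.72 in KO, and _AATTATT_n at 0.845 ± 1.15 and 0.485 ± 0.619. The fall that passed is thus that of a single name, and whether the rest of the motif differs from it was not tested. The name _AATTAAT_n no longer passed in 10 of the 12 fits that each left out 1 library, nor without both WT replicate 2 and KO replicate 5. Its call was also lost with no filter on low counts and with limma-voom and quality weights, with an adjusted p of up to 0.160 over the settings that gave it one. It had no adjusted p under DESeq2 or under the filter at a mean of 1 CPM, so it was not called there.

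The only rise was in _GACAGA_n, of the motif ACAGAG. It ran from 2.52 to 5.69 CPM in WT with a median of 4.12, and from 7.57 to 18.8 CPM in KO with a median of 10.2. All KO libraries lay above all WT libraries, and KO replicate 5 stood apart at the top of its group. The change was 1.45 (SE 0.27, adjusted p = 0.0179). It passed with any 1 library left out, and it did not pass without both WT replicate 2 and KO replicate 5. Over all settings run its adjusted p was at most 0.0651.

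The exact reverse complement of that name, _TCTGTC_n, stood at 13.8 ± 4.48 CPM in WT and 20.9 ± 1.74 in KO, a log2 difference of 0.60 (SE 0.19, adjusted p = 0.143) with WT replicate 6 inside the KO range. All 12 names of the motif ACAGAG were tested, with 10 positive and 2 negative log2 fold changes from -0.34 (_GTCTCT_n) to 1.45 (_GACAGA_n). The motif as a whole was 263.7 ± 32.8 CPM in WT and 287.5 ± 25.7 in KO, a log2 difference of 0.12 (SE 0.094, adjusted p = 0.548), so the called name was a small part of an abundant motif.

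**Figure D3:**
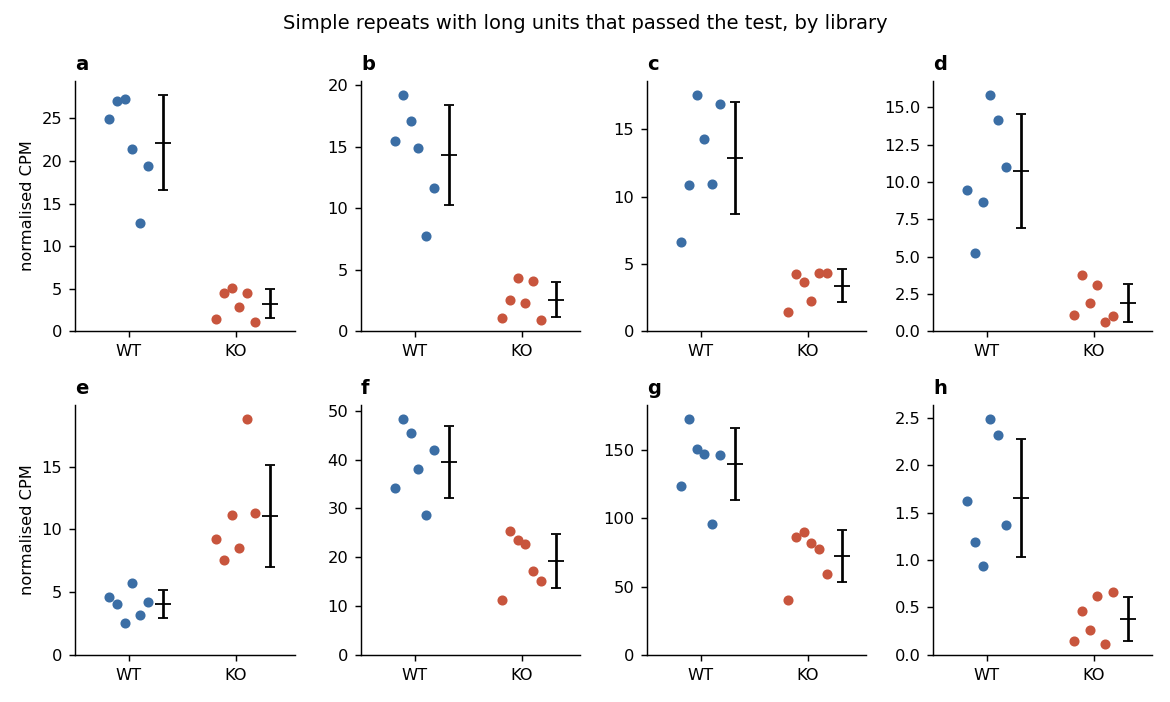
Normalised CPM of the 8 members that passed, by library (6 WT, 6 KO), each panel on its own linear axis from 0, with mean ± SD. Panel a shows _GAGATAA_n, panel b _CTCTTAT_n, panel c _CTTGTC_n, panel d _AGAGCGCA_n, panel e _GACAGA_n, panel f _GAGCAA_n, panel g _TCTTGC_n and panel h _AATTAAT_n: no panel has an overlap between groups, and KO replicate 5 is the high point of e at 18.8 CPM.

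The calls differed in how firmly they stood. For _GAGATAA_n with _CTCTTAT_n, for _CTTGTC_n as well as for _AGAGCGCA_n, 0 of the 12 fits without 1 library and 0 of the 10 fits with other settings lost the call, with adjusted p of at most 0.0480. Removal of KO replicate 5 or 6, or of WT replicate 3 or 6, ended the call of _GAGCAA_n. The call of _TCTTGC_n ended on removal of KO replicate 6, or of WT replicate 3 or 6. Both were also lost without WT replicate 2 and KO replicate 5 together and with no filter on low counts, with adjusted p of at most 0.0751 and 0.0750 over all settings. The number of lower members was 4 in place of 7 without WT replicate 3, without WT replicate 6 and without KO replicate 6, and the number of higher members was 2 without WT replicate 2 or without KO replicate 5. Over all repeats in the first 3 of these fits, 0.614%, 0.52% and 0.527% were lower, in that order, against 1.27% in the main fit. Without WT replicate 2 or KO replicate 5, 0.143% and 0.173% of all repeats were higher, against 0.151%. As the plot of levels by library shows, the groups lie closer together in _GAGCAA_n and _TCTTGC_n than in the names that kept their call in every fit.

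When counts were summed by motif, 628 motif groups of members were tested, and 0 rose and 8 fell (edgeR quasi-likelihood test, adjusted over 1991 rows). At an unadjusted p under 0.05 (edgeR) there were 11 higher and 40 lower motif groups. The share of all rows at that unadjusted level was not counted, so these numbers have no background beside them. DESeq2 called 4 higher and 16 lower, against 2.46% and 5.93% of all rows in the DESeq2 fit. The 8 make 1.27% of the motif groups, where 4.62% of all rows in the edgeR fit passed, 4.02% lower and 0.603% higher. Besides AAGAGAT, AAGAGCGC and AAGGAC these were AAGGTC at -1.14 (adjusted p = 0.0311), ACCGTG at -0.64 (0.0424), AAGAGTGC at -1.14 (0.0437), AGAGCT at -0.89 (0.0451) and AATTCTC at -0.81 (0.0491). Of the 8, AAGAGAT and AAGAGCGC were called in every setting run, and each of the other 6 lost its call in 7 to 10 of the 12 fits without 1 library. Without both WT replicate 2 and KO replicate 5, all of these 6 other than AAGGAC lost it. The number of lower motif groups was 2 without KO replicate 1, and 2 as well when replicate 6 of either group was removed, and 3 without KO replicate 5. It was 4 on removal of WT replicate 1 or 3, 5 on removal of WT replicate 2 or 4 or of KO replicate 3 or 4, and 12 on removal of the library that raised it most, KO replicate 2. The lower share of all rows moved as well, from 4.02% to 2% without KO replicate 1 and 1.84% without KO replicate 6. It was 2.76% without WT replicate 6, 2.86% without KO replicate 5 and 6.02% without KO replicate 2. On the other removals named it ran from 2.16% to 4.06%. Total-count scaling gave 19 higher and 3 lower motif groups, against 16.5% and 1.56% of all rows in that fit.

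The motifs that passed only in the fit of sums differed in how they were made up. That fit adjusted over 1991 rows, of which 4.62% passed, in place of 3312 rows, of which 1.42% passed. For ACCGTG the unadjusted p (edgeR) was 0.00162, and for its name _TCACGG_n alone 0.00149. For AGAGCT it was 0.00199, and for _TCTAGC_n alone 0.00175. In both motifs the unadjusted p was thus not lower in the fit of sums, while in AAGGTC and AAGAGTGC it was. For AATTCTC it was 0.00227 in the fit of sums and 0.00289 for _CTCAATT_n alone, with log2 fold changes of -0.81 and -0.83. Both fits were scaled separately, and what lowered these p-values was not tested. For the motif AAGGTC, the name _TCAAGG_n stood at 3.14 ± 1.23 CPM in WT and 1.83 ± 0.696 in KO, and _CCTTGA_n on the other strand at 2.49 ± 0.955 and 0.739 ± 0.532. AAGAGTGC was likewise the sum of a pair of rare names, _CTCTTGCA_n at 2.78 ± 1.20 and 1.35 ± 0.751 CPM and _AAGAGTGC_n at 1.36 ± 0.854 and 0.478 ± 0.398. The motif ACCGTG was by contrast nearly a single name, since _TCACGG_n held 97.6% of its counts at 28.3 ± 7.71 CPM in WT and 17.9 ± 1.42 in KO. AATTCTC was nearly the name _CTCAATT_n, which held 98.5% of its counts at 39.4 ± 7.95 and 22.1 ± 8.00 CPM. In AGAGCT the names _TCTAGC_n and _GAGCTA_n, on opposite strands, stood at 22.0 ± 3.94 and 11.2 ± 4.05 CPM and at 16.9 ± 4.57 and 9.49 ± 3.50 CPM, with _TCTAGC_n 1.33 ± 0.177 times _GAGCTA_n in WT and 1.18 ± 0.142 times in KO.

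**Figure D4:**
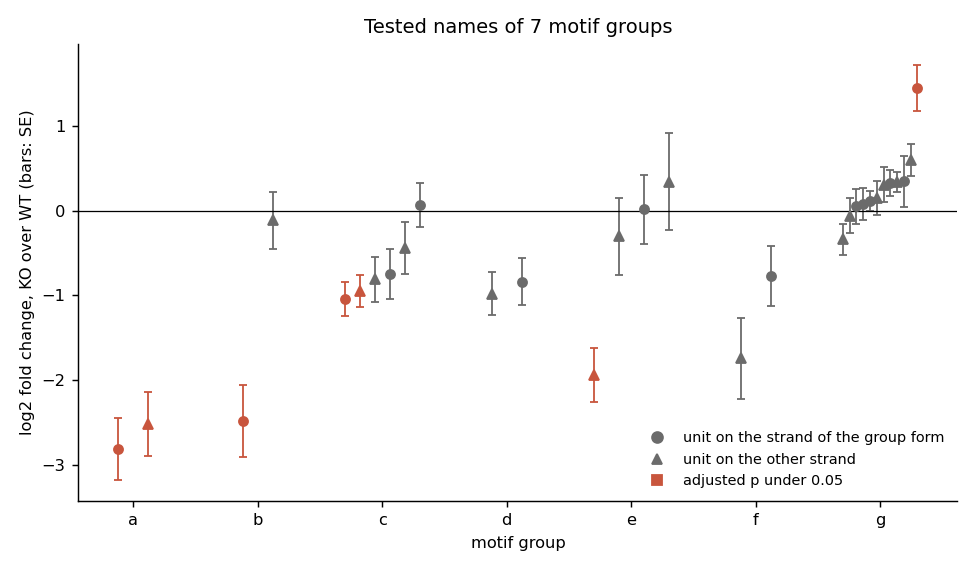
Log2 fold change, KO over WT (± SE), of each tested name of 7 motif groups, where column a is AAGAGAT, column b AAGAGCGC, column c AAGAGC, column d AGAGCT, column e AAGGAC, column f AAGGTC and column g ACAGAG. Circles spell the strand of the group form, triangles the other strand, and red marks an adjusted p under 0.05: the names of a and c that passed lie close together, while in e and g a single name lies far from the rest.

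Signs differed within many motifs, with or without a call. In 249 motif groups, those with called names included, at least 2 names were tested. In 170 of them the log2 fold changes had both signs, and the median range within the 249 groups was 0.80. Most of these names did not pass the test, and the differences between them were not tested. The plot of names within motif groups shows the contrast between AAGAGAT, where both tested names fell, and ACAGAG, where 1 of 12 rose.

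The word AAGAG was looked at in all motif groups after the values had been seen, so its counts are a description only. It occurs, read circularly on either strand, in 24 of the 628 tested groups, of which 16 had a negative and 8 a positive log2 fold change, with a median of -0.12 and 3 calls. The 604 groups without it had a median of 0.0092 and 5 calls. Most groups with this word were thus not called, and AAGAGG, an abundant motif of 334.3 ± 28.3 CPM in WT and 321.9 ± 65.1 in KO, differed by -0.055 (SE 0.12, adjusted p = 0.888).

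MERVL-int fell in KO by a log2 value of -1.04 (adjusted p = 0.0159), from 66062 ± 14862 to 32176 ± 8631 CPM, with WT replicate 2 highest, WT replicate 5 lowest in WT, and KO replicates 1 and 6 lowest of all. The same libraries were highest and lowest in _TCTTGC_n as well as in _GAGCAA_n. Their counts were therefore divided by those of MERVL-int in the same library, a ratio chosen after the values had been seen. Per 1000 counts of MERVL-int, _TCTTGC_n had 2.13 ± 0.154 counts in WT and 2.26 ± 0.278 in KO, between 1.89 and 2.65 over all 12 libraries, a span of 1.40-fold where its CPM spanned 4.30-fold. For _GAGCAA_n the ratio was 0.603 ± 0.0512 in WT and 0.601 ± 0.0939 in KO, a span of 1.60-fold against 4.31-fold.

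A narrow ratio was also seen in 3 further names. Per 1000 MERVL-int counts, _CTCAATT_n had 0.604 ± 0.0852 counts in WT and 0.681 ± 0.141 in KO, a span of 1.83-fold against 4.08-fold in CPM. For _TCTAGC_n the ratio was 0.337 ± 0.0384 and 0.341 ± 0.0710, a span of 1.88-fold against 5.35-fold. For _GAGCTA_n, the same motif on the other strand, it was 0.254 ± 0.0258 and 0.290 ± 0.0599, a span of 1.74-fold against 5.55-fold. These 5 were the only names with a span under 2-fold among the 274 members with a mean of at least 10 CPM. In those 274 the median span of the ratio was 4.96-fold and that of CPM 2.45-fold, and in 20 of them the ratio spanned less than the CPM.

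The names with the strongest changes did not keep a constant ratio to MERVL-int. Per 1000 MERVL-int counts _GAGATAA_n had 0.335 ± 0.0551 counts in WT and 0.0947 ± 0.0379 in KO, with no overlap, and _CTCTTAT_n 0.215 ± 0.0353 and 0.0757 ± 0.0331. _AGAGCGCA_n had 0.178 ± 0.0910 and 0.0584 ± 0.0288, where the WT library with the lowest ratio, 0.0574 in WT replicate 2, lay inside the KO range. The ratio of _CTTGTC_n was 0.201 ± 0.0684 and 0.108 ± 0.0440, also with overlap, and that of _GACAGA_n was 0.0632 ± 0.0197 in WT and 0.363 ± 0.132 in KO, without overlap. Whether copies of these repeats lie inside or beside MERVL elements was not tested, nor was the part of MERVL-int in any of these differences.

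**Figure D5:**
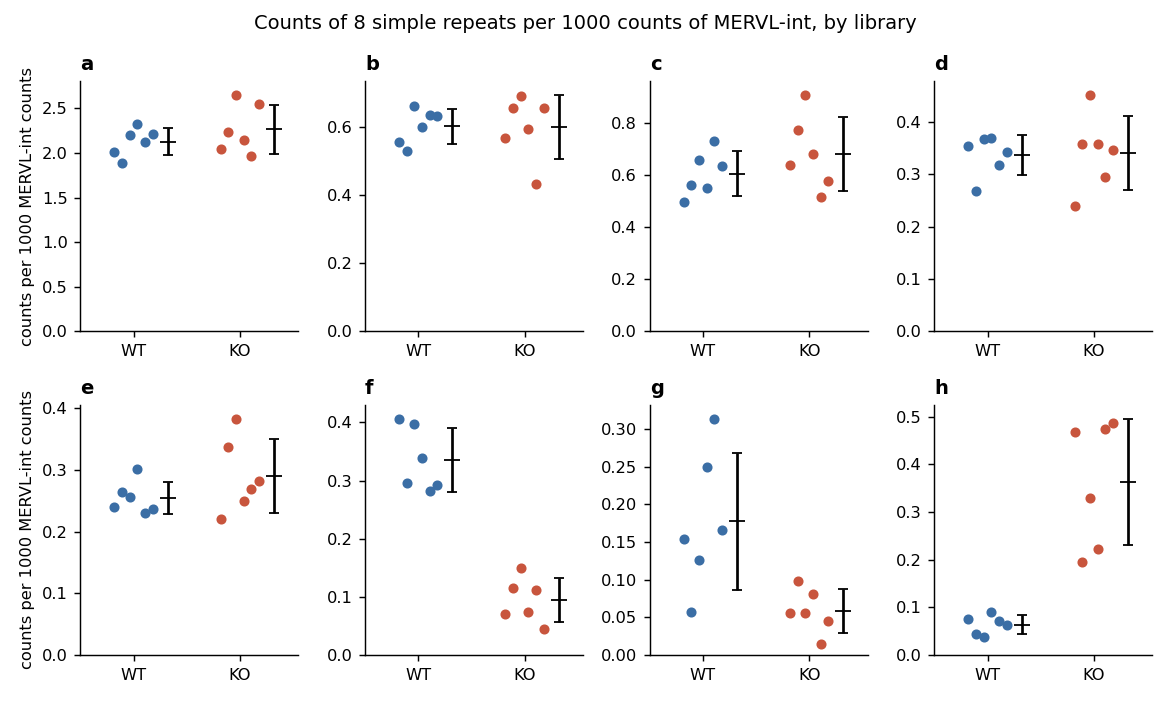
Counts of 8 members per 1000 counts of MERVL-int in each library (6 WT, 6 KO), each panel on its own linear axis from 0, with mean ± SD. Panel a shows _TCTTGC_n, panel b _GAGCAA_n, panel c _CTCAATT_n, panel d _TCTAGC_n, panel e _GAGCTA_n, panel f _GAGATAA_n, panel g _AGAGCGCA_n and panel h _GACAGA_n: in panel a the mean ratio is 2.13 in WT and 2.26 in KO, while in panel f it is 0.335 and 0.0947.

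Telomere repeats were a small part of the long-unit repeats. All 12 rotations and strands of the telomere motif TTAGGG are listed, 8 were tested, 4 of these had a positive log2 fold change, and 0 passed, with 0 also at an unadjusted p under 0.05. Summed, the motif stood at 17.5 ± 5.07 CPM in WT, from 9.23 to 23.6, and at 17.8 ± 2.83 in KO, from 13.7 to 22.1. The groups overlapped, and the log2 difference was 0.025 (SE 0.21, adjusted p = 0.966). Names written on the CCCTAA strand held 76.2% of the motif's counts and names on the TTAGGG strand, which is the strand of TERRA, 23.8%. Since use of the read strand in counting is not stated, these are shares of names and not of transcript strands.

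Among single telomere names, the most counted was _ACCCTA_n at 4.32 ± 1.66 CPM in WT and 4.002 ± 0.352 in KO, a log2 difference of -0.12 (SE 0.31). The names farthest from 0 were _AACCCT_n at 1.11 (SE 0.56, adjusted p = 0.420) and _TTAGGG_n at -0.86 (SE 0.66, adjusted p = 0.635). The standard errors of the 7 tested names other than _ACCCTA_n ran from 0.40 to 0.67, at mean levels of 0.629 to 2.83 CPM. Names of the telomere variants TCAGGG, then TGAGGG, then TTGGGG numbered 35, of which 1 was tested and 0 passed. The tested name, _ACCCCA_n, had a mean of 9.34 CPM and a log2 fold change of -0.88, with an unadjusted p under 0.05 (edgeR).

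The 5 members with the next smallest p in each direction did not pass and are given by their values. On the lower side these were _AGCAGA_n at -1.41 and _TCTCTTC_n at -0.96, both with an adjusted p of 0.0517, _CAGCCTC_n at -0.87 (0.0577), _CTGCCTC_n at -0.78 (0.0601) and _TTTTTTG_n at -0.43 (0.0625). _TCTCTTC_n ran from 11.99 to 21.6 CPM in WT and from 5.49 to 11.9 in KO, without overlap, and also holds AAGAG on its other strand. _CAGCCTC_n and _CTGCCTC_n are different motifs with similar letters, at 10.6 ± 1.32 and 14.0 ± 2.18 CPM in WT and 5.78 ± 1.70 and 8.08 ± 2.18 in KO. On the higher side were _TGTGTGTGCA_n at 1.46 and _GATGAG_n at 0.89, both with an adjusted p of 0.100, _TGTGTG_n at 0.39 (0.131), _CTTTTTT_n at 0.91 (0.137) and _TCTGTC_n at 0.60 (0.143). _TGTGTG_n, by sequence a repeat of the dinucleotide TG, ran from 18.2 to 23.6 CPM in WT and from 22.6 to 30.2 in KO, so the groups overlapped at their edges. _CTTTTTT_n ran from 2.05 to 4.24 CPM in WT and from 4.29 to 9.69 in KO, with every KO library above every WT library.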

How the data were processed

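For each repeat name and each of 12 total RNA libraries, the authors deposited an estimated count of reads. The submitters' processing notes name Trimmomatic 0.32, edgeR and mm10 without giving their roles. Aligner, repeat annotation, counting program, use of strand and treatment of reads with several matches: not given in the sources used here. Values of the deposited estimated counts were all whole numbers, so rounding changed 0 files. Titles gave groups and replicate numbers, since the numbers in the names of the deposited tables run the opposite way.

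All repeat names were fitted together with edgeR 4.0.16 (R 4.3.3): filterByExpr by group, TMM scaling, the quasi-likelihood test of KO against WT, Benjamini-Hochberg adjustment and a threshold of 0.05. This left 3312 repeats, 1467 of them members. A second fit summed all simple repeats by motif, with rotations and reverse complements as 1 motif. CPM values use TMM-scaled library sizes. Standard errors come from the F statistic. The scripts were tested on simulated counts. Totals of 7952526 to 18902360 counts per library gave few counts to most members, and counts of reads, with no molecular identifiers, are not counts of molecules.

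Named members are all that passed, the next 5 in each direction by p, the 10 most abundant, the tested telomere names, the motif groups that passed and the 10 most counted motif groups. Further names belong to the motifs of these or have the narrowest ratio to MERVL-int, and were chosen after their values were seen. The members, lists and rules were chosen with earlier results of these data known. Alternatives were 3 other scalings, 2 other filters, DESeq2 1.42.0, limma-voom (limma 3.58.1) with quality weights, robust edgeR, a replicate block, removal of each library and removal of WT replicate 2 with KO replicate 5. Names that repeat a shorter unit were not removed in any of these fits. Among the called members 0 are such names, a count made after the data were seen. No genome or repeat coordinates were used here.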

Additional observations from a re-analysis of the deposited data

Results flagged for a closer look

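In 110 groups of 6 libraries, for the named members and motif groups, the gap of the highest or lowest library to its nearest neighbour was divided by the whole range of the group. It was above Dixon's limit in 7 of them, and chance alone flags about 1 in 20 groups. KO replicate 5 was high in 3 cases. It held 18.8 CPM of _GACAGA_n, the other KO libraries 7.57 to 11.3 (gap share 0.669). It held 439.6 CPM of _TCATCT_n against 174.2 to 245.6 (0.731), and 945.6 CPM of the motif group AAGATG, to which that name belongs, against 456.2 to 630.1 (0.645). WT replicate 2 was high in A-rich motifs, with 759.6 CPM of AAAAAG against 518.1 to 605.6 in the other WT libraries (0.637) and 476.6 CPM of AAAAAAC against 324.9 to 377.4 (0.654). KO replicate 1 held 12.2 CPM of _CTGCCTC_n against 5.95 to 7.95 (0.682). WT replicate 4 was low in _AGAAAAG_n, with 58.7 CPM against 104.5 to 130.7 (0.636).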

How the results depend on the processing

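Against 1 higher and 7 lower members, total-count scaling gave 33 higher, DESeq2 5 higher and 27 lower, no filter 4 lower, removal of WT replicate 2 with KO replicate 5 4 lower, and single removals 1 to 2 higher and 4 to 9 lower. Against 0 higher and 8 lower motif groups, total-count scaling gave 19 and 3, DESeq2 4 and 16, no filter 1 and 3, RLE, upper quartile scaling and limma-voom 1 higher each, removal of both libraries 4 lower, and single removals 0 to 2 higher and 2 to 12 lower. Over all repeats, single removals gave 0.0289% to 0.26% higher and 0.52% to 2.43% lower. No filter gave 0.164% lower and removal of both libraries 0.555%. Over all rows summed by motif, single removals gave 0.147% to 1.33% higher and 1.84% to 6.02% lower. No filter gave 1.6% lower there and removal of both libraries 2.58%. Same-numbered libraries did not deviate together (correlations -0.071 to 0.15, own number best in 1 of 6), and a replicate block gave 0 higher and 6 lower members and 4 lower motif groups, with the calls of _GACAGA_n as well as _AATTAAT_n lost. The KO minus WT share of the members was 0.240 percentage points of all counts, 0.208 to 0.287 on single removals, 0.0347 of counts outside LTR and -0.570 of simple repeat counts. The cause of these shifts was not tested. No called value changed sign. Uncalled values near 0 did: under total-count scaling _TTGTGG_n (0.044), _TTTTTG_n (0.30), _TTTTGG_n (0.28), _ACCCTA_n (0.17), AAAAAG (0.12), AAAAAAC (0.21), AAGAGG (0.25) and AAAGAG (0.21). Under upper quartile scaling _TTTTTG_n (0.012) and _TTTTGG_n (0.015), under limma-voom _TTTTTG_n (0.0083), and with no filter _TTTTGG_n (0.0035). Without both libraries _TCATCT_n (-0.056), _CTTCTC_n (-0.031), _TTTTTG_n (0.030), _TTCTCC_n (-0.0040), AAGATG (-0.086) and AAGGAG (-0.046). Single removals gave ranges of -0.12 to 0.21 (_TCATCT_n), -0.11 to 0.12 (_CTTCTC_n), -0.066 to 0.040 (_TTTTTG_n), -0.083 to 0.27 (_TTCTCC_n), -0.11 to 0.072 (_TTTTGG_n), -0.13 to 0.59 (_AGGGTT_n), -0.0067 to 0.085 (AAAAAC), -0.11 to 0.13 (AAGATG) and -0.094 to 0.16 (AAGGAG). Most tested members had a mean under 10 CPM, and some of these differed by a log2 value over 1 without passing.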
